A study of Mus musculus with 12 samples.

Results

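The Irx3 and Irx5 locus of the mouse was described here from chromatin immunoprecipitation and sequencing (ChIP-seq) of embryonic forelimb buds. Its members are all peaks of the 7 deposited lists that share at least 1 bp with a window on chromosome 8 from 93900000 to 95200000 (mm9), chosen by position alone. The window is 1.3 Mb long and holds 398 of the 189536 peaks of the series. There were 102 H3K27me3 peaks of the double mutant, 85 of wild type and 114 of the E10.5 forelimb. H3K27ac had 7 mutant and 6 wild-type peaks, HOXA13 had 50 peaks and HOXD13 had 34.

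Double mutants were Hoxa13-/-;Hoxd13-/- embryos at E11.5 on a mixed C57BL/6 and CD1 background. Their Hoxa13 allele is interrupted by a neomycin cassette in the coding region, and their Hoxd13 allele by a lacZ reporter in exon 1. Wild-type E11.5 embryos had the same mixed background, and both genotypes were sampled from the distal forelimb, the part from which digits form. The E10.5 group consisted of CD1 forelimb buds, not labelled as distal. The H3K27me3 antibody came from Millipore at E11.5 and from Cell Signaling at E10.5, so stage, strain, antibody and part of the limb cannot be told apart. Each group is 1 library, so that no difference between groups could be tested, and the labels do not say how many embryos went into a library or of which sex. The H3K27me3 lists differed in their share of autosomal peaks. These were 19624 of 28875 peaks in wild type, 18973 of 19358 in the mutant and 15077 of 17556 at E10.5. Whether the sex of the embryos plays a part in this was not tested. Shares over autosomes leave the other peaks out, while score ranks within a list include them.

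Irx3 and Irx5 encode homeodomain transcription factors of the Iroquois family and are neighbours on the chromosome. In the mouse limb they act early, in the formation of proximal and anterior skeletal elements. H3K27me3 is the mark of Polycomb repressive complex 2 and often spreads over whole loci of silent developmental genes, whereas H3K27ac marks active promoters and enhancers. HOXA13 and HOXD13 are homeodomain factors of the late distal limb bud, required for digit formation. In the RefSeq gene order the protein-coding neighbours are Rpgrip1l and Fto on the side of Irx3, and Irx6 and Mmp2 on the side of Irx5. Introns of Fto are known to hold enhancers that contact Irx3.

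Gene models of mm9 were not used here, and the positions of the genes are those given with the window, near 94.32 Mb for Irx3 and near 94.88 Mb for Irx5, to about 10 kb. A peak is therefore placed by its distance from such a position and is not assigned to a promoter or an intron. Low and high side refer to coordinates, and distances run to the nearer edge of a peak or site. The sequences under the peaks could not be read from the GRCm38 genome at hand. Among the 2 genes, the RefSeq promoter table of GRCm38.p6 matched 1, and the sequence is shown because the mark differences described below include an acetylated peak close to the stated position of Irx3. It is on another build than the peaks and is not placed on them. It covers 250 bases before to 50 bases after the start of Irx3 (minus strand, written 5′ to 3′), with CpG dinucleotides, the base pairs typical of Polycomb-bound promoters, in capitals.

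Irx3: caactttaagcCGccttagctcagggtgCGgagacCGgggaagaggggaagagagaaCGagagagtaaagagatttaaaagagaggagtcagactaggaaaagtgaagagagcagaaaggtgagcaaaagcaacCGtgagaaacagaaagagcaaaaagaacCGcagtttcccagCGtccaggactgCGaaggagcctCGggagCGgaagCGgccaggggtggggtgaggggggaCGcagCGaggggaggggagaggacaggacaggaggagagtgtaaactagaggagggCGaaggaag

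This stretch holds 14 CpG and is 56.0% G or C, against medians of 7.00 CpG and 52.7% over 32851 promoters of 300 bases. It has more CpG than 63.7% of them. A pair of words known from HOX13 motifs, TCGTAAA and CAATAAA, were searched on both strands and neither was found, while 0.597% and 4.60% of all promoters hold them. This says only that these letters do not occur in this window.

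H3K27me3 was called over long stretches of the locus in each of the 3 libraries. It covered 622 kb of the window in the double mutant, 734 kb in wild type and 433 kb at E10.5, or 47.8%, 56.5% and 33.3% of its length. The window thus held 1.04% of all autosomal H3K27me3 length of the mutant list, 0.989% of the wild-type list and 0.862% of the E10.5 list. Its share of the autosomal peak number was lower, 0.538% in the mutant, 0.433% in wild type and 0.756% at E10.5. In a bulk tissue, a mark in fewer cells and less of the mark per cell cannot be told apart.

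**Figure D1:**
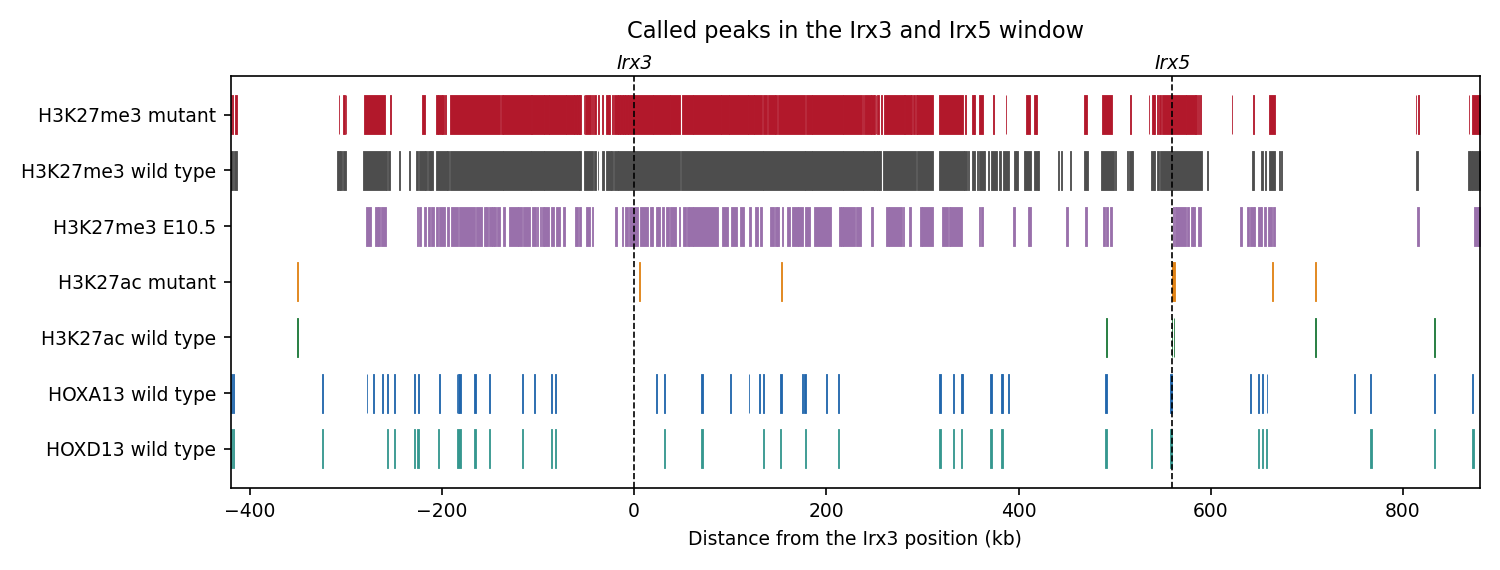
Peaks of the 7 lists along the window (bars, to scale), by distance from the Irx3 position in kb; dashed lines mark the Irx3 and Irx5 positions. H3K27me3 covers 47.8% of the window in the mutant, 56.5% in wild type and 33.3% at E10.5, while H3K27ac has 7 peaks in the mutant and 6 in wild type.

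The peaks were also wide. The widest wild-type H3K27me3 peak of the window ran from 94368673 to 94453615, beginning 48.7 kb from the Irx3 position, and at 84943 bp it was number 5 in width among 19624 autosomal peaks. The peak that contains the Irx3 position ran from 94303027 to 94367765 and was number 13. In the double mutant the widest was 52388 bp (94128525 to 94180912), number 14 of 18973. At E10.5 it was 26560 bp (94381127 to 94407686), number 36 of 15077. The median width within the window was 1888 bp in the mutant, 2423 bp in wild type and 2446 bp at E10.5, against 1682, 2235 and 2383 bp over autosomes.

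Peaks of a list that lay within 5000 bp of each other were grouped into domains. In both genotypes at E11.5 the Irx3 position lay in the largest of them. This domain spanned 517 kb in the double mutant (94114142 to 94631114) and 538 kb in wild type (94092823 to 94631048), and peaks filled 91.1% of it in the mutant and 95.1% in wild type. Its upper end differed by less than 100 bp between the genotypes, but it is an end only under the 5000 bp rule. The next domain began at 94636911 in the mutant and at 94636978 in wild type, little more than 5000 bp away. Number and length of the domains depend on this distance, and no other was tried. At E10.5 the stretch of the Irx3 domain consisted of 7 domains of 10 kb or more. The 2 longest spanned 154 kb (94093895 to 94247690) and 146 kb (94307325 to 94453356, with the Irx3 position), and the others 18.7, 63.0, 22.4, 26.7 and 13.2 kb.

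In both genotypes at E11.5 the Irx5 position lay in a domain of its own. Between it and the domain of Irx3 lay further domains, named below, and gaps. Coverage was 62.6% in the mutant and 78.8% in wild type from 94.60 to 94.70 Mb. It was 9.06% in the mutant and 29.3% in wild type from 94.70 to 94.80 Mb. At E10.5 the domain matching that of Irx5 began 0.3 kb past the stated position, which is known to about 10 kb only. The Irx5 domain spanned 54.8 kb in the double mutant (94855525 to 94910305), 52.4 kb in wild type (94858114 to 94910539) and 29.2 kb at E10.5 (94880279 to 94909430). Its high-side end was thus alike in the 3 lists, and its low-side end lay close to the Irx5 position only at E10.5. The wild-type peak at Irx5, from 94866864 to 94910539, was number 38 in autosomal width.

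The remaining domains of at least 10 kb flanked these 2. On the low side of Irx3, 1 domain spanned 27.7 kb in the mutant (94038849 to 94066582), 29.1 kb in wild type and 20.1 kb at E10.5. Between the genes, the mutant had a pair of domains of 28.1 kb (94636911 to 94665046) and 11.4 kb (94671839 to 94683241), where wild type had 1 of 72.6 kb (94636978 to 94709621) and E10.5 1 of 20.4 kb (94640340 to 94660735). This was the place where the domain layout differed most in length between the genotypes. Nearer to Irx5 there were domains of 11.3 and 10.1 kb in the mutant and of 15.4 and 15.6 kb in wild type, with none of 10 kb at E10.5. On the high side of Irx5 a domain of 22.6 kb in wild type (94972065 to 94994630) and of 29.1 kb at E10.5 (94958028 to 94987100) had no mutant counterpart of 10 kb. There the mutant had a single peak of 6249 bp with the score 3100, from 94980750 to 94986998. Wild type had a similar peak of 6330 bp, also with the score 3100, from 94980638 to 94986967. Peaks filled only 53.3% of this wild-type domain, and its other peaks had scores up to 195. The last domain, which crosses the end of the window, measured 19.4 kb in the mutant, 20.6 kb in wild type and 12.3 kb at E10.5.

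Coverage in bins of 100 kb followed the same outline. From 94.10 to 94.60 Mb, it was between 79.0 and 96.6% per bin in the mutant, between 86.8 and 99.5% in wild type and between 45.2 and 73.2% at E10.5. From 94.70 to 94.80 Mb it was only 9.06% in the mutant, 29.3% in wild type and 8.31% at E10.5. It was 49.4% in the mutant, 58.7% in wild type and 21.7% at E10.5 from 94.80 to 94.90 Mb, the bin with the Irx5 position. No list had H3K27me3 in the bin that starts at 95000000. Wild type had the highest value in all bins with H3K27me3 but the one that starts at 94900000, where coverage was 14.9% in the mutant, 26.6% in wild type and 27.7% at E10.5.

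**Figure D2:**
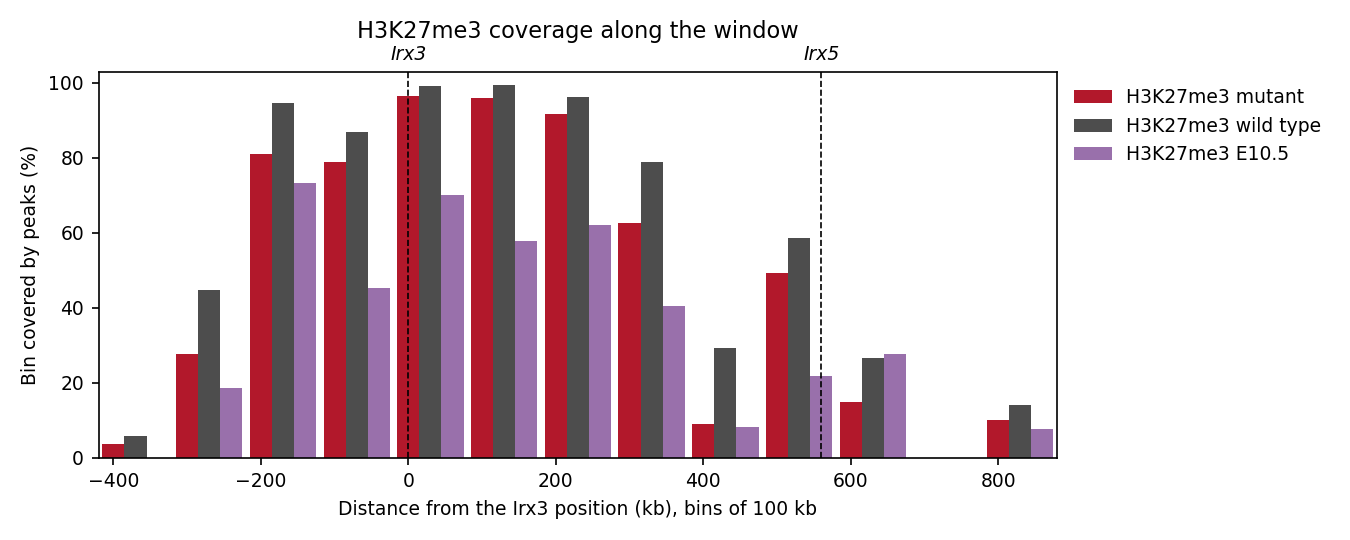
Share of each 100-kb bin covered by H3K27me3 peaks (y axis, percent), by distance from the Irx3 position (x axis, kb), in the mutant, wild type and E10.5 libraries, 1 library each. In the 5 bins from 94.10 to 94.60 Mb the mutant lies between 79.0 and 96.6%, wild type between 86.8 and 99.5% and E10.5 between 45.2 and 73.2%.

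Close to the genes the genotypes differed little. Within 25 kb of the Irx3 position, H3K27me3 covered 92.1% in the double mutant, 97.6% in wild type and 57.0% at E10.5. Within 25 kb of the Irx5 position, it covered 82.9% in the mutant, 88.4% in wild type and 38.6% at E10.5. Peaks containing either position had the score 3100 in both genotypes. At E10.5 the peak over the Irx3 position (94316345 to 94323689) had the score 896. The first E10.5 peak on the high side of the Irx5 position had 65.6, and the strongest there, from 94884273 to 94894703, had 2181 and stood above 96.4% of its list. The score is the peak caller's measure of significance (a p-value on a negative log scale, multiplied by 10). Many peaks share the value 3100, and scores are compared within a list only.

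Almost all mutant H3K27me3 lay where wild type had it too. Of the mutant length 98.9% was shared with wild type, and of the wild-type length 83.8% was shared with the mutant, while over all autosomes these shares were 91.3% and 73.7%. The mutant covered 0.847 times the wild-type length in the window and 0.807 times over autosomes, so that the shorter mutant coverage was not confined to this locus. On the side of Irx3, up to the midpoint between the genes at 94.6 Mb, the ratio was 0.904, and on the side of Irx5 it was 0.704. In bp, 6.70 kb was covered in the mutant only and 119 kb in wild type only.

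The wild-type excess came in short pieces. It fell into 159 stretches, and the 3 longest were 3046 bp (94694458 to 94697503), 2736 bp (94108340 to 94111075) and 2669 bp (94096398 to 94099066). Counted as peaks, 5 of 102 mutant peaks had no wild-type peak, or 4.90%, against 15.8% over autosomes. The opposite held for 33 of 85 wild-type peaks, or 38.8% (Wilson 95% interval 29.2 to 49.5%), against 30.4% over autosomes. Such an interval reflects how few peaks were counted and says nothing of variation between embryos. Of the 33, 12 lay on the side of Irx3 and 21 on that of Irx5. They had low scores, with a median of 120 against 2365 for wild-type peaks with a mutant peak, and a median width of 1199 against 5432 bp.

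At E11.5 the mark covered more of the locus than at E10.5 and contained nearly all that was covered at E10.5. Wild type covered 1.70 times the E10.5 length in the window and 1.48 times over autosomes, and the mutant 1.44 and 1.19 times. Of the E10.5 length 96.5% was also covered in wild type and 91.4% in the mutant, against 85.3% and 77.4% over autosomes. All 3 lists shared 395 kb, both genotypes at E11.5 without E10.5 shared 221 kb, and 14.3 kb was covered at E10.5 only.

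In peak numbers, 47 of 85 wild-type peaks (55.3%) had no E10.5 peak, against 50.2% over autosomes, and 49 of 102 mutant peaks (48.0%) had none, against 46.5%. Conversely, 4 of 114 E10.5 peaks (3.51%) were absent from wild type, against 13.6% over autosomes, and 12 (interval 6.12 to 17.5%) from the mutant, against 19.5%. The longest stretch with wild-type and no E10.5 coverage was 13.4 kb, from 94866864 to 94880278, which is the low side of Irx5 up to its stated position. The next were 10.7 kb (94247691 to 94258411) and 8.46 kb (94524808 to 94533268), both nearer to Irx3. The 4 E10.5 peaks absent from wild type all lay on the side of Irx5, and 3 of them were 70.4 to 89.4 kb on its high side, with scores up to 74.9.

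H3K27ac was sparse throughout the locus, with 7 of 37433 autosomal mutant peaks and 6 of 31220 autosomal wild-type peaks. They covered 9.07 kb in the mutant and 5.71 kb in wild type, or 0.0124% and 0.00976% of the autosomal length of their lists. None reached 5 kb. Scores ran from 64.4 to 348 in the mutant, where 3 of 7 peaks exceeded the autosomal median of 243, and from 51.4 to 171 in wild type, below the autosomal median of 337. Of the mutant peaks 3 of 7 had no wild-type peak, or 42.9% (15.8 to 75.0%), against 30.4% over autosomes. Of the wild-type peaks 2 of 6 had no mutant peak, or 33.3% (9.68 to 70.0%), against 15.1%. Both intervals include the autosomal share.

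At Irx3 the only acetylation called within 100 kb was in the double mutant. The mutant peak ran from 94324755 to 94326011, 4.8 kb from the stated Irx3 position, with a score of 94.8, above 23.6% of its list. The nearest wild-type H3K27ac peak lay at -349.9 kb, negative distances being on the low side. H3K27me3 covered all of the mutant acetylated stretch in both genotypes, but at E10.5 it covered 0.796% of it, because the peak filled a gap between E10.5 peaks that ended at 94323689 and began at 94326002. No HOX13 peak overlapped it, the nearest being a HOXA13 peak (94342376 to 94343299, score 80.1) 22.4 kb from the Irx3 position. The acetylated peak was absent from the list with a score of 100 or more and present in lists of equal length.

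At Irx5 acetylation was called in both genotypes. The mutant had 1 peak from 94879429 to 94880145 (score 64.4) and 1 from 94880188 to 94882578 (score 348). Wild type had 1 from 94879445 to 94880132 (score 58.5) and 1 from 94881551 to 94882325 (score 51.4). Together they spanned 3.11 kb in the mutant and 1.46 kb in wild type, all of it inside H3K27me3 of both genotypes. Within its own list the second mutant peak stood above 57.2% of peaks and the second wild-type peak above 0.914%. Depth and enrichment of the libraries are unknown, so that these ranks do not measure a difference in acetylation. With a score of 100 or more only the second mutant peak was left of the 4. With lists of equal length the first mutant peak was absent and the others were present.

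**Figure D3:**
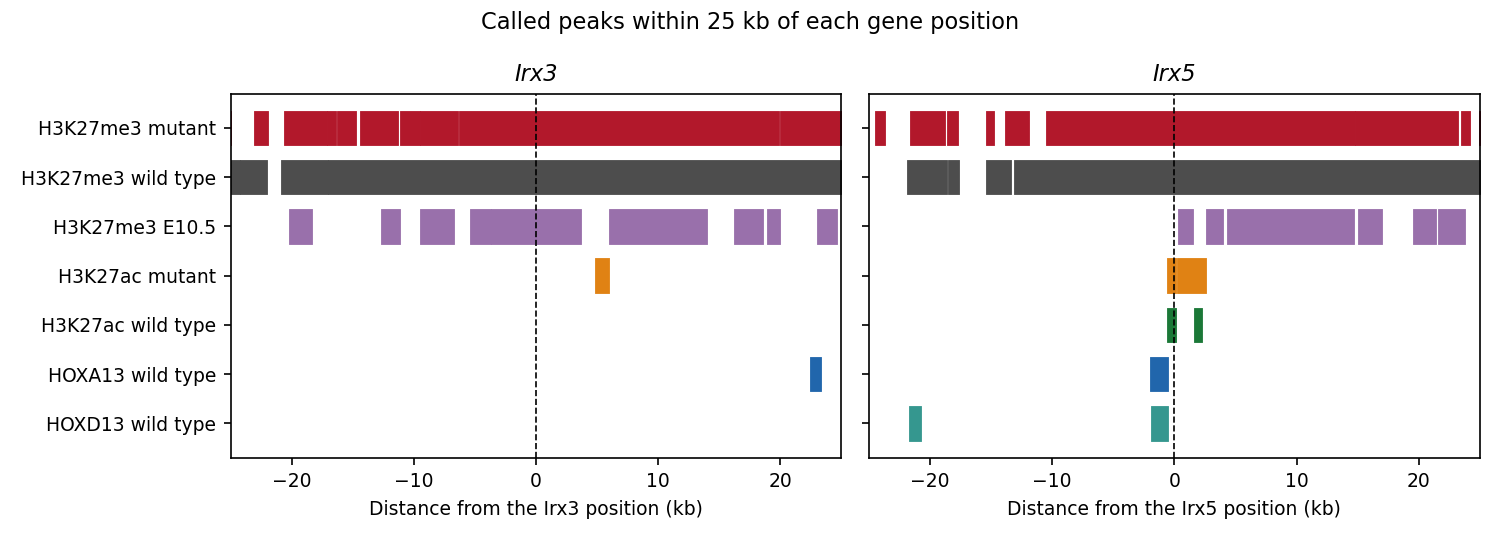
Peaks of the 7 lists within 25 kb of the Irx3 position (left) and of the Irx5 position (right), to scale, in kb. At Irx3 H3K27ac was called in the mutant only (score 94.8), and at Irx5 in both genotypes, over 3.11 kb in the mutant and 1.46 kb in wild type. H3K27me3 at E10.5 begins 0.3 kb past the stated Irx5 position, which is known to about 10 kb only. At E11.5 it extends to the low side of that position.

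The other peaks called in 1 genotype only were distal. In the double mutant, 1 ran from 94984101 to 94985316 (score 252), 104.1 kb on the high side of Irx5 and within H3K27me3 of both genotypes. Another ran from 94472741 to 94473607 (score 77.3), 152.7 kb on the high side of Irx3, within H3K27me3 of both genotypes and overlapping a site of both HOX13 factors. It was absent from the list with a score of 100 or more and from lists of equal length. In wild type, 1 ran from 94810579 to 94811643 (score 171), at -68.4 kb from Irx5, within H3K27me3 of both genotypes and a site of both factors. The last ran from 95152305 to 95153296 (score 105), 272.3 kb on the high side of Irx5, at a site of both factors and outside H3K27me3. The peaks common to both genotypes beside those at Irx5 were at 93968846 to 93970216 in the mutant (score 264) and 93968952 to 93970116 in wild type (score 161), and at 95028855 to 95030101 in the mutant (score 126) and 95028989 to 95030012 in wild type (score 99.9). Neither had a HOX13 peak or H3K27me3.

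Some acetylated peaks overlapped H3K27me3 of the same genotype. They numbered 5 of 7 in the mutant, or 71.4% (35.9 to 91.8%), against 13.2% over autosomes, and 3 of 6 in wild type, or 50.0% (18.8 to 81.2%), against 14.2%. H3K27me3 covered 47.8% of the window length in the mutant and 56.5% in wild type, and both values lie within these intervals. Peaks overlapping a HOX13 site numbered 2 of 7 in the mutant (28.6%), against 29.3% over autosomes, and 3 of 6 in wild type (50.0%), against 38.2%. Binding was mapped in wild type only. Whether both marks sit on the same chromatin or in different cells of the tissue was not measured.

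HOXA13 and HOXD13 peaks were found along the entire locus. Of 50 HOXA13 peaks 37 overlapped a HOXD13 peak, or 74.0% (60.4 to 84.1%), against 64.0% over autosomes. Of 34 HOXD13 peaks 33 overlapped a HOXA13 peak, or 97.1% (85.1 to 99.5%), against 87.0%. Merging gave 47 sites, of which 33 had both factors (70.2%, against 58.1% over autosomes). HOXA13 alone had 13 sites (27.7%, against 33.2%), and HOXD13 alone had 1 (2.13%, against 8.72%). The 2 factors were cross-linked differently, and the part of this in sites of 1 factor was not tested. Of the 47, 21 lay between the genes, 18 on the low side of Irx3 and 8 on the high side of Irx5. The median score was 179 for HOXA13 and 266 for HOXD13, with autosomal medians of 126 and 134. HOXA13 peaks without HOXD13 had a median score of 80.1 and a highest of 171, while those with HOXD13 had a median of 253. The 100-kb bins with the most sites, 7 each, start at 94000000 and 94400000, and each of the 13 bins held at least 2.

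The highest-scoring sites lay away from the genes. The first for both factors ran from 94497185 to 94498859, 177.2 kb on the high side of Irx3, with a HOXA13 score of 2636 and a HOXD13 score of 2441. These exceeded 99.6% of HOXA13 peaks and 99.4% of HOXD13 peaks. Also among the first 3 for both factors were a site from 94531782 to 94533359 (1916 for HOXA13 and 1915 for HOXD13) and a site from 94202801 to 94204697 (2489 and 1869), at -115.3 kb from Irx3. The site from 94973147 to 94974632, 93.1 kb on the high side of Irx5, was number 4 for HOXA13 (1433), and that from 94453949 to 94455190 was number 5 (1267). For HOXD13, number 4 was the site from 94809882 to 94812646 (1141), at -67.4 kb from Irx5, and number 5 that from 94135378 to 94140114 (940).

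Closer to the genes, scores lay on both sides of the window medians. Within 100 kb of the Irx3 position, the median score was 207 for 6 HOXA13 peaks and 437 for 4 HOXD13 peaks. Within 100 kb of the Irx5 position, it was 217 for 6 HOXA13 peaks and 128 for 6 HOXD13 peaks. The site closest to Irx5 ran from 94877965 to 94879524, ending 0.5 kb before the stated position, with a HOXA13 score of 278 and a HOXD13 score of 118. It was number 17 for HOXA13 and number 27 for HOXD13 in the window. No HOXD13 peak lay within 25 kb of the Irx3 position, and the closest one began 30.6 kb from it (score 500).

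**Figure D4:**
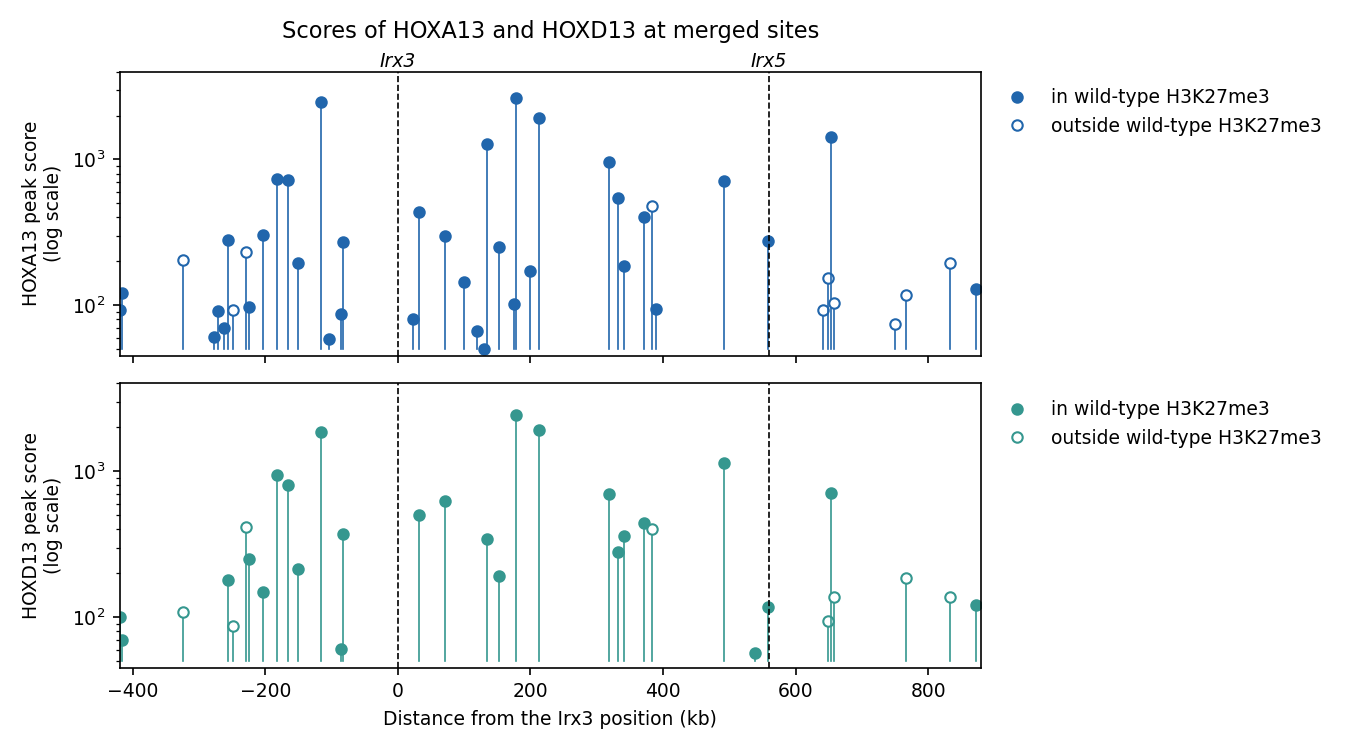
Score of the HOXA13 peak (upper panel) and of the HOXD13 peak (lower panel) at each merged site, on a log axis, by distance from the Irx3 position in kb; filled points overlap wild-type H3K27me3. The first site of both factors, with scores of 2636 and 2441, lies between the genes, and 37 of the 47 sites lie in wild-type H3K27me3.

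Most HOX13 sites of the locus lay in H3K27me3 and few in H3K27ac. H3K27me3 overlapped 32 of 47 sites in the double mutant, or 68.1% (53.8 to 79.6%), and 37 in wild type, or 78.7% (65.1 to 88.0%). Over 33296 autosomal sites the shares were 8.60% in the mutant and 10.7% in wild type. At E10.5 it was 25 sites, or 53.2% (39.2 to 66.7%), against 6.44%. H3K27ac overlapped 2 sites in the mutant, or 4.26% (1.17 to 14.2%), and 3 in wild type, or 6.38% (2.19 to 17.2%), against 34.4% and 37.7% over autosomes. H3K27me3 covered 47.8% of the window length in the mutant, 56.5% in wild type and 33.3% at E10.5. A site counts with 1 shared bp, so these are unlike measures. By length, H3K27me3 covered on average 63.4% of a site in the mutant, 71.7% in wild type and 32.2% at E10.5. The 2000 bp on each side were covered to 63.0%, 76.4% and 48.0%.

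The combination of marks was the same in both genotypes at 39 of 47 sites, or 83.0% (69.9 to 91.1%), close to the 84.9% over autosomal sites. H3K27me3 without H3K27ac was called in the mutant and in wild type at 29 sites (61.7%, against 4.17% over autosomes), and neither mark in both at 9 (19.1%, against 51.8%). At 5 sites (10.6%, interval 4.63 to 22.6%) there was no mark in the mutant and H3K27me3 in wild type, against 1.60% over autosomes. Few autosomal sites carry H3K27me3 at all, so these shares of all sites do not compare like with like. Among sites in wild-type H3K27me3, the mutant lacked the mark at 5 of 37 here and at 948 of 3561 over autosomes. This difference was not tested. These 5 are the sites beginning at 94062571, 94094454, 94690641, 94709339 and 94973147. The last of these is the number 4 HOXA13 site, and wild-type H3K27me3 covered 78.7% of it. The reverse, H3K27me3 in the mutant and no mark in wild type, was found at 0 sites, against 0.423% over autosomes.

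The 4 sites with acetylation each had another pair of states. The site at Irx5 had both marks in both genotypes, a state of 2.70% of autosomal sites. Its acetylation rested on peaks that began at 94879429 in the mutant and 94879445 in wild type, close to the end of the site at 94879524. Their scores were 64.4 and 58.5, and the mutant peak was absent from lists of equal length. The site from 94471847 to 94473433 had both marks in the mutant and H3K27me3 alone in wild type, as did 0.550% over autosomes. The site from 94809882 to 94812646 had H3K27me3 alone in the mutant and both marks in wild type, as did 0.429%. The site from 95152484 to 95153939 had no mark in the mutant and H3K27ac alone in wild type, as did 6.99%. With 1 site in each state, nothing can be read from these shares about the locus.

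At E10.5, H3K27me3 was often interrupted at the places that HOX13 occupied a day later in development, a comparison made after the values had been seen. E10.5 peaks covered on average 32.2% of a site and 48.0% of its flanks of 2000 bp on each side. Coverage was lower in the site than in its flanks at 25 of 47 sites and higher at 8. The same averages were 63.4% in the site and 63.0% in the flanks for the mutant, and 71.7% and 76.4% for wild type, with lower values in the site at 7 mutant and 9 wild-type sites and higher values at 9 mutant and 8 wild-type sites. At E11.5, coverage was complete at 27 sites in the mutant and 30 in wild type, which leaves little room for a difference.

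The 7 sites with the highest scores show the pattern. At the site from 94202801 to 94204697, E10.5 H3K27me3 covered 20.8% of the site and 100% of its flanks, and at E11.5 it covered all of the site in both genotypes. At the site from 94531782 to 94533359, E10.5 coverage was 5.77% in the site and 50.0% in the flanks, and coverage at E11.5 was again complete in both genotypes. The first site of both factors was partly uncovered in each list, with 45.3% covered in the mutant, 78.5% in wild type and 48.1% at E10.5, while its flanks were covered to 100% in both genotypes and to 73.3% at E10.5. The site from 94809882 to 94812646 went the other way at E10.5, with 78.8% in the site and 60.9% in the flanks. In all, E10.5 coverage was lower in the site than in the flanks at 6 of the 7. On average it was 38.7% in the site and 71.7% in the flanks at E10.5. The averages were 73.8% and 84.0% in the mutant, with lower coverage in the site at 2 sites and higher at 0. In wild type they were 93.9% and 89.9%, with lower coverage at 1 site and higher at 2.

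**Figure D5:**
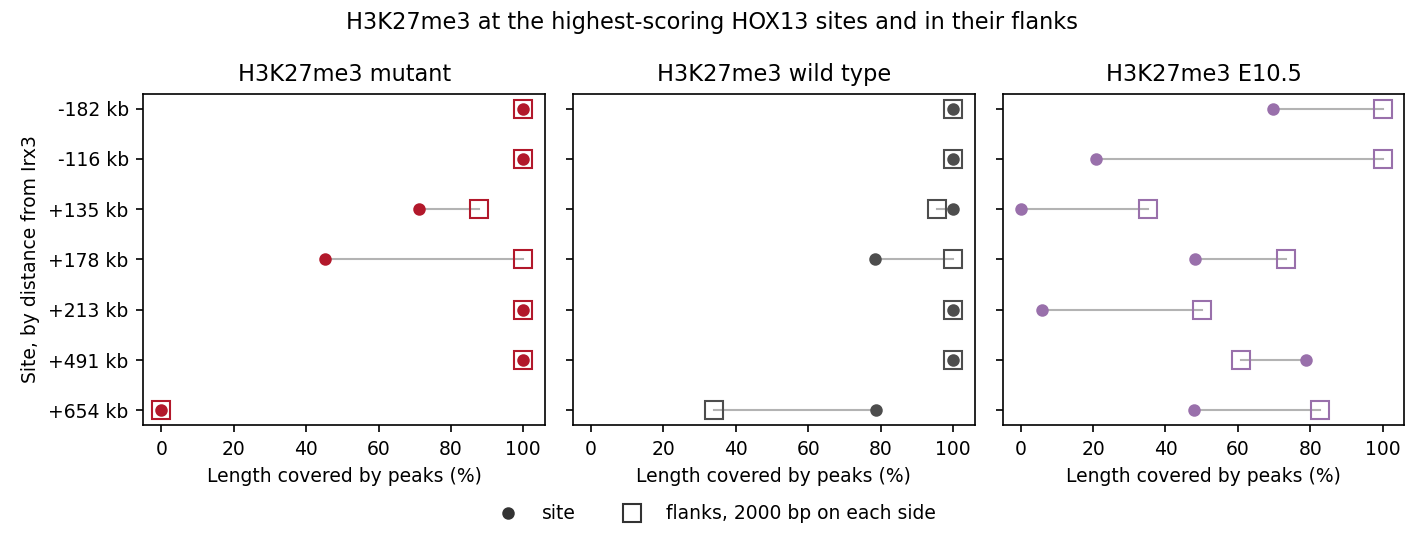
Percent of the site (filled circles) and of its flanks of 2000 bp on each side (open squares) covered by H3K27me3 peaks at the 7 sites with the highest HOXA13 or HOXD13 scores, in the mutant, wild type and E10.5 libraries; sites are named by the distance of their centre from Irx3. At E10.5 the site is covered less than its flanks at 6 of 7 sites.

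Over the autosomes the pattern was smaller. At the 3561 autosomal sites within wild-type H3K27me3, E10.5 peaks covered 37.6% of the site and 40.4% of the flanks, and coverage was lower in the site at 29.2% and higher at 25.7% of sites. At the 37 such sites of the locus, the averages were 39.1% in the site and 55.7% in the flanks, with lower coverage in the site at 59.5% and higher at 18.9%. The difference between locus and autosomes was not tested. With flanks of 1000 bp the mean difference over the 47 sites was -10.5 percentage points, against -15.8 with 2000 bp.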

How the data were processed

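Each of the 7 ChIP libraries has 1 peak list with positions and a score per peak. The submitters' processing notes name Bowtie 0.12.7, MACS 1.4 and the build mm9, and further settings are not given in the sources used here. The 5 input libraries were not analysed here. The deposited score was read as -10 times log10 of a p-value (lowest value 50.0), was not normalized between lists by the authors and was used within a list only. Between 6 and 16 peaks per list lay past the end of chromosome 1 of GRCm38, so that positions were kept on mm9, counting from 1. Depth is unknown from the lists.

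Overlap was at least 1 bp. Overlapping peaks of the 2 factors formed 1 site. Shares in the window stand beside the same shares over all autosomal peaks, and Wilson 95% intervals cover counting only. The 1-library groups allow no test. Overlap, merging and coverage were tested on simulated intervals. Alternatives were a score of 100 or more, overlap of 50%, a gap of 1000 bp, joined peaks, lists of equal length and a narrower window; other flank lengths were added later. The text names the H3K27me3 domains of at least 10 kb, the H3K27ac peaks of 1 genotype, the 5 sites with the highest score of each factor and sites whose marks differ between genotypes. The window, the members and these rules were chosen with earlier results of these data known. Computations used Python 3.11.15, numpy 2.4.6, scipy 1.17.1 and matplotlib 3.10.9.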

Additional observations from a re-analysis of the deposited data

How the results depend on the processing

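Of 109 values recomputed under another setting, 92 stayed within the limit set for them, which was 1.5 times for counts and lengths, 10 percentage points for shared length and the Wilson interval for shares of peaks or sites. With a score of 100 or more, E10.5 H3K27me3 had 70 peaks, H3K27ac had 4 mutant and 3 wild-type peaks, 75.0% of mutant H3K27ac peaks had no wild-type peak and 0% of HOX13 sites overlapped mutant H3K27ac, the last also with lists of equal length. Joining peaks within 1000 bp left 47 mutant and 44 wild-type H3K27me3 peaks. In the narrower window from 94.22 to 94.98 Mb there were 4 mutant and 3 wild-type H3K27ac peaks, 28 HOXA13 and 19 HOXD13 peaks, 27 merged sites and 18 of both factors. Sites with E10.5 H3K27me3 made up 27.7% with overlap of 50% of either peak and 70.2% with a gap of up to 1000 bp, against 53.2%. The mean E10.5 coverage of sites minus that of flanks was -15.8 percentage points, and -10.5 with flanks of 1000 bp. The causes were not tested, beyond the fewer peaks or the shorter window that these settings leave. The covered lengths of H3K27me3 and the shares of length in common stayed within their limits under all settings run for them. No paired analysis was possible because each group holds 1 library. Depth is unknown, and its part in a peak called in 1 library only was not tested.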
